A study of Mus musculus with 6 samples.

Results

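Transgelins and calponins are small proteins that bind actin filaments and share a calponin-homology domain, and a transgelin resembles the front part of a calponin. The 5 genes described here are Tagln and Tagln2 for the transgelins and Cnn1, Cnn2 and Cnn3 for the calponins, out of 16423 gene symbols in the deposited table. They were taken by symbol. The family was chosen by its measured values in the comparison of siYBX1 with siNC, so the difference between these groups is described for the 5 genes without a test. The table also holds Tagln3, a transgelin best known from neurons, which is no member and was listed at 0.161 ± 0.0577 FPKM in siYBX1 and 0.240 ± 0.166 FPKM in siNC (SD, n = 3 each).

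The cells were C3H10T1/2, an established mouse mesenchymal stem cell line, differentiated towards brown fat. All received 3-isobutyl-1-methylxanthine, dexamethasone, insulin, triiodothyronine, indomethacin and rosiglitazone at first, then insulin, triiodothyronine and rosiglitazone. On day 4 they received either siRNAs against Ybx1 (siYBX1, labelled YBX1 knockdown, 3 libraries) or a control siRNA (siNC, labelled WT, 3 libraries), and RNA was taken 48 h later. All 6 libraries thus come from 1 cell line that went through differentiation and transfection, and an untransfected or undifferentiated culture is not analysed here. Whether the replicates were separate cultures is not given in the sources used here, so the spread between them may be technical.

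Tagln, also called SM22-alpha, is a textbook early marker of smooth muscle and myofibroblast differentiation. Cnn1, basic calponin, restrains actomyosin in differentiated smooth muscle, whereas Tagln2, Cnn2 and Cnn3 are made in many non-muscle cells. Transcription of Tagln and Cnn1 is driven by serum response factor (SRF), which binds CArG boxes together with cofactors of the myocardin and MRTF family, and TGF-beta, YAP and TEAD proteins act on many of the same genes. MRTF and SRF activity is known to oppose commitment of mesenchymal cells to fat. YBX1 is a cold-shock domain protein named for its binding to the Y-box, a promoter element with an inverted CCAAT sequence, and it also binds many mRNAs.

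The promoters are shown here because CArG boxes, TEAD motifs and CCAAT boxes are the elements named above. RefSeq's promoter table (GRCm38.p6) holds 4 of the 5 genes, with 250 bases before the start and 50 from it; Tagln has no entry in it. In the sequences below, all on the plus strand and written 5′ to 3′, capitals mark CArG boxes, the TEAD motif CATTCC and the CCAAT box on either strand (ATTGG where it lies on the other strand).
Tagln2, chr1:172499996-172500295: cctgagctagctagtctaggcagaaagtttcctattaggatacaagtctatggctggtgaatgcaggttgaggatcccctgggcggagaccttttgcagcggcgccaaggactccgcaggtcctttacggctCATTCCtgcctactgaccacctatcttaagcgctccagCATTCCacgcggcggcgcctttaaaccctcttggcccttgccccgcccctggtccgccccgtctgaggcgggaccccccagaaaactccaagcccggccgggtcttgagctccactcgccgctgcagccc
Cnn1, chr9:22099003-22099302: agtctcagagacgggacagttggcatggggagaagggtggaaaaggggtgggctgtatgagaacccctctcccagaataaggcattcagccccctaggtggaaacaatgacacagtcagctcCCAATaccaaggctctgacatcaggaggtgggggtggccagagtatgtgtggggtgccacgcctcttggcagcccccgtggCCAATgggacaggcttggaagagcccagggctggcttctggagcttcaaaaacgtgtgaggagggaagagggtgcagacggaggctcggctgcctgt
Cnn2, chr10:79988350-79988649: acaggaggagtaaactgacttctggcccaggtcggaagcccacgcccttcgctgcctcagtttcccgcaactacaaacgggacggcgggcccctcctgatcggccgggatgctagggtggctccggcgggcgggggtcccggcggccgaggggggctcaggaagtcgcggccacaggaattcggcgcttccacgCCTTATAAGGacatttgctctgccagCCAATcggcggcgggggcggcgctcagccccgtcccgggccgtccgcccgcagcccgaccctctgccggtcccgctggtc
Cnn3, chr3:121426291-121426590: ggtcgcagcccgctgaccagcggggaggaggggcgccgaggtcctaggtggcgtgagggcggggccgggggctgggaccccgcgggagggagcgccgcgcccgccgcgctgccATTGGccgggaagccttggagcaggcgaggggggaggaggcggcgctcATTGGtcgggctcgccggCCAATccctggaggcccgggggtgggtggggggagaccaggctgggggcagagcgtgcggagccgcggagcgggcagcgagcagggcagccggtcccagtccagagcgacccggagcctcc

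Of these 4 windows only that of Cnn2 held a CArG box, CCTTATAAGG, at positions -56 to -47 from the start (the start base being 0), and it reads the same on both strands. A CArG box stood in 1.63% of the 32851 promoter windows of the table. The Cnn2 window also held a CCAAT box at -30 to -26. Tagln2 had the TEAD motif at -118 to -113 and again at -80 to -75, a motif found in 14.7% of windows, and it had no CCAAT box. Cnn1 had CCAAT boxes at -128 to -124 and -47 to -43 and neither a CArG box nor the TEAD motif. Cnn3 had 3 CCAAT boxes, on the minus strand at -137 to -133 and -89 to -85 and on the plus strand at -71 to -67. CCAAT boxes stood in 37.4% of windows. Both strands were searched, the 3 motifs do not overlap each other in these windows, and elements outside the 300 bases were not searched.

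Translated from the longest coding transcript of each gene in GENCODE vM21 (GRCm38), the transgelins were 201 residues (Tagln) and 199 residues (Tagln2) long, and the calponins 297 (Cnn1), 305 (Cnn2) and 330 (Cnn3). Tagln and Tagln2 shared 67.8% of 199 aligned residues. Among the calponins the identity was 69.5% for Cnn1 and Cnn3, 66.7% for Cnn2 and Cnn3, and 63.8% for Cnn1 and Cnn2. A transgelin and a calponin shared between 43.0% and 48.1%. The longest identical run of coding bases between any 2 members was 23 bases, for Cnn1 and Cnn3, and no transcript of one member held a stretch of 50 bases of another.

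Reads of Tagln and Cnn3 could nevertheless be shared with other genes. On either strand, 55.4% of the 50-base stretches of Tagln transcripts also lay in Gm48529, annotated as an antisense gene within Tagln, and 2.98% lay in Pcsk7, a protease gene whose end overlaps that of Tagln on the opposite strand. The labels do not say whether counting used strand, so reads of such partners cannot be told apart from those of Tagln. Pcsk7 itself was measured at 6.03, 5.59 and 6.49 FPKM in siYBX1 and 5.01, 5.50 and 5.71 FPKM in siNC (log2 fold change 0.13, SE 0.07, adjusted p = 0.201, limma). Sidt2, the next coding gene on the other side of Tagln, had a log2 fold change of 0.06 (adjusted p = 0.462, limma), so neither neighbour passed the test. No level is given here for Gm48529, the partner with the larger share of stretches. For Cnn3, 24.0% of stretches were shared with Gm42928, a gene model on the opposite strand at its start, and with the processed pseudogenes Gm4815 and Gm17936. How far shared reads enter the values of Tagln and Cnn3 was not measured, and these shares of sequence do not give it. Cnn1 and Cnn2 shared none of their stretches and Tagln2 0.565%.

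The totals that scale the FPKM values (fragments scaled by gene length and library total) were recovered from the steps of these values. They were 31957411 to 35410308 reads in siYBX1 and 34207232 to 35299269 reads in siNC. Of each total 99.36% to 99.42% lay on genes of the table, so it need not be the full depth of the library. FPKM is per length, so levels of different genes can be compared. Ybx1 itself was at 59.3, 67.9 and 61.3 FPKM in siYBX1 against 135, 134 and 130 FPKM in siNC (log2 fold change -1.07, SE 0.06, adjusted p = 3.98e-06, limma). Fold changes are differences of mean log2(FPKM + 1), and a gene is called where limma's adjusted p over all 10341 tested genes, those averaging 1 FPKM or more, is below 0.05. By that rule 987 genes (9.54%) were called higher and 1145 (11.1%) lower in siYBX1, so 46.3% of calls were higher. With libraries rescaled to the same total, 662 were higher and 1570 lower, and 29.7% of calls were higher. Groups did not overlap, with all 3 siYBX1 libraries higher, for 19.0% of tested genes, and with all 3 lower for 21.9%.

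Tagln was the member that differed most. It was at 50.6, 54.4 and 45.9 FPKM in siYBX1 and at 9.17, 6.69 and 7.84 FPKM in siNC. Every siYBX1 library was high and every siNC library low, with a gap of 36.7 FPKM between the lowest siYBX1 and the highest siNC library. The means were 50.3 ± 4.24 FPKM in siYBX1 and 7.90 ± 1.24 FPKM in siNC (SD, n = 3 each), a 6.37-fold ratio, and single pairs of libraries lay between 5.00-fold and 8.12-fold. On the log2(FPKM + 1) scale the difference was 2.53, the highest among the tested genes. In order of level over the whole table Tagln stood at place 1383 in siYBX1 and at place 6096 in siNC. Behind the values were 2565, 3053 and 2428 reads in siYBX1 and 506, 363 and 439 reads in siNC. The spread between siNC libraries, a coefficient of variation of 15.7%, was wider than the 4.79% that counting alone gives. In bulk RNA more cells with a transcript and more transcript per cell cannot be told apart.

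Tagln2 differed little and its groups overlapped. It was at 130, 126 and 112 FPKM in siYBX1 and at 119, 100.1 and 100.9 FPKM in siNC. The siNC replicate 1 library was above the lowest siYBX1 library, and the ratio of means was 1.15 (122.8 ± 9.22 FPKM in siYBX1 and 106.8 ± 10.9 FPKM in siNC, SD, n = 3 each). The ratio of Tagln2 to Tagln was 2.45 ± 0.120 in siYBX1 and 13.6 ± 1.17 in siNC. Tagln made up 28.1% to 30.1% of the FPKM of the 2 transgelins in siYBX1 libraries and 6.26% to 7.21% in siNC libraries, so Tagln2 was the more abundant transgelin in every library.

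Cnn2 was the calponin with the clearest difference. It was at 302, 310 and 299 FPKM in siYBX1 and at 218, 208 and 206 FPKM in siNC. The groups did not overlap, with a gap of 80.6 FPKM, and the ratio of means was 1.44 (303.8 ± 6.03 FPKM in siYBX1 and 210.9 ± 6.32 FPKM in siNC, SD, n = 3 each). The difference was 0.53 on the log2(FPKM + 1) scale, at place 79 from the highest among tested genes. In FPKM it was the largest difference of the family, 93.0 FPKM, against 42.4 FPKM for Tagln.

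Cnn3 was at 241, 241 and 238 FPKM in siYBX1 and at 205, 223 and 218 FPKM in siNC. The groups did not overlap, but the lowest siYBX1 library was only 14.8 FPKM above the highest siNC library. The means were 239.9 ± 1.88 FPKM in siYBX1 and 215.3 ± 9.50 FPKM in siNC (SD, n = 3 each), a ratio of 1.11. On the log2(FPKM + 1) scale the difference was 0.16. It was 0.10 when all libraries were rescaled to the same total and 0.05 with quantile normalization.

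Cnn1, the calponin of differentiated smooth muscle, was close to absent in both groups. It was listed at 0.0771, 0.0696 and 0.0739 FPKM in siYBX1 and at 0.0885, 0.0720 and 0.140 FPKM in siNC. These values stand for 4, 4 and 4 reads in siYBX1 and 5, 4 and 8 reads in siNC. Summed, 12 reads in siYBX1 have an exact 95% Poisson interval of 6.20 to 21.0, and 17 reads in siNC one of 9.90 to 27.2, both covering counting error only. Cnn1 was the member below the filter of 1 FPKM. In siYBX1 Tagln was at 50.3 FPKM beside 0.0735 ± 0.00377 FPKM for Cnn1, and in siNC at 7.90 FPKM beside 0.1 ± 0.0352 FPKM (SD, n = 3 each).

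**Figure D1:**
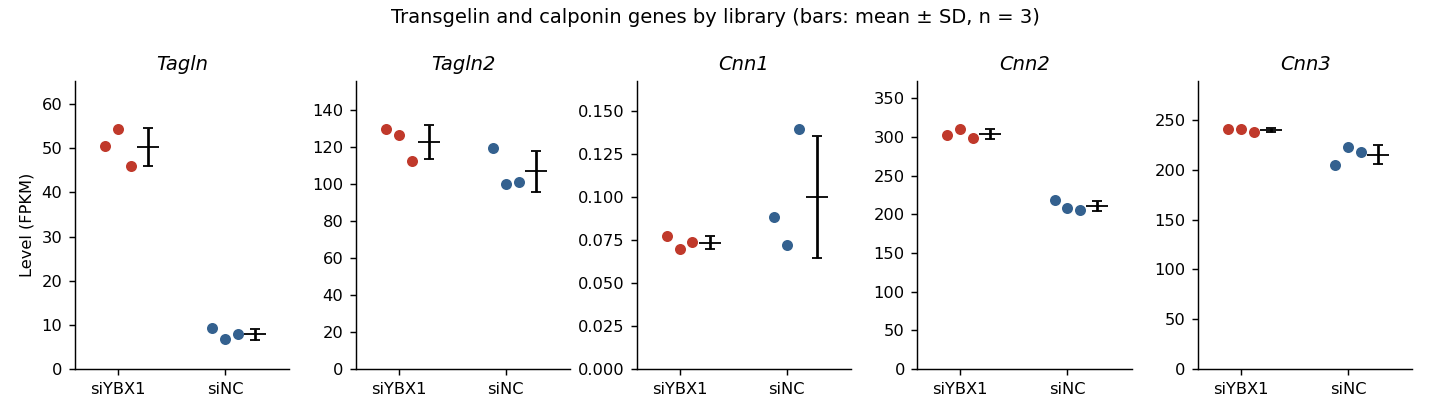
Level in FPKM (vertical axes, linear and starting at 0, each gene with its own scale) of the 5 genes in siYBX1 (red) and siNC (blue), with points for the 3 libraries of each group and bars for the mean ± SD. Tagln lay at 45.9 to 54.4 FPKM in siYBX1 and 6.69 to 9.17 FPKM in siNC, Cnn2 and Cnn3 did not overlap between groups, Tagln2 did, and Cnn1 stayed at or below 0.140 FPKM.

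In siYBX1 the order of levels was Cnn2, Cnn3, Tagln2, Tagln and Cnn1, and no neighbours in that order overlapped. In siNC Cnn3 and Cnn2 came first and overlapped, at 205 to 223 FPKM and 206 to 218 FPKM, followed by Tagln2, Tagln and Cnn1. Cnn2 was 1.27 ± 0.0197 times as high as Cnn3 in siYBX1 and 0.982 ± 0.0729 times in siNC (SD, n = 3 each). The FPKM of all 5 genes summed to 716.9 ± 19.6 in siYBX1 and 540.9 ± 9.30 in siNC. Of the difference between these sums Cnn2 gave 52.8%, Tagln 24.1%, Cnn3 14.0% and Tagln2 9.11%. The share of Tagln in the sum was 7.01% ± 0.409 in siYBX1 and 1.46% ± 0.210 in siNC, while that of Cnn3 was 33.5% ± 0.675 in siYBX1 and 39.8% ± 2.36 in siNC (SD, n = 3 each).

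**Figure D2:**
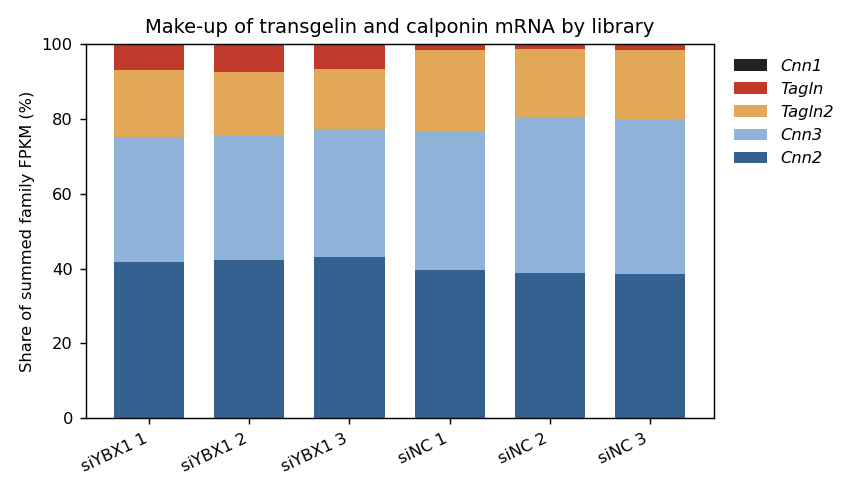
Share of each gene in the summed FPKM of the 5 genes (vertical axis, %), 1 bar for each library, siYBX1 libraries first. The Tagln segment covers 6.61% to 7.43% in siYBX1 and 1.24% to 1.66% in siNC, Cnn2 covers 41.8% to 43.0% in siYBX1 and 38.7% to 39.6% in siNC, and Cnn1 is too small to see.

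The groups did not overlap for Tagln, Cnn2 and Cnn3, with siYBX1 higher, as for 19.0% of tested genes, and the same values chose the members. Calls varied with gene length, so each member above the filter was set beside the other tested genes whose recovered length was within 10% of its own. Their median log2 fold change was 0.05 for the 584 genes like Tagln (1586 bases), 0.06 for the 473 like Tagln2 (1382 bases), 0.03 for the 710 like Cnn2 (1782 bases) and 0.01 for the 818 like Cnn3 (2003 bases). Between 14.2% (like Cnn3) and 18.2% (like Tagln) of these genes were called higher, and between 6.13% (like Tagln2) and 9.54% (like Cnn3) lower. The members' own differences were 2.53 for Tagln, 0.20 for Tagln2, 0.53 for Cnn2 and 0.16 for Cnn3.

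The genes that work with the family in smooth muscle cells were mostly higher. Of 20 contractile partners 18 were tested, and 16 (88.9%) rose and none fell, beside 9.54% and 11.1% over all tested genes. Their median log2 fold change was 0.60 against -0.01 over all tested genes. The list and the next ones were put together with earlier results of these data known. Actg2, smooth muscle gamma-actin, was at 26.8, 26.5 and 26.6 FPKM in siYBX1 and 6.14, 5.31 and 6.96 FPKM in siNC (log2 fold change 1.96, SE 0.08, adjusted p = 2.61e-07, limma). Myl9, a myosin regulatory light chain, was at 322, 287 and 294 FPKM in siYBX1 and 77.7, 92.2 and 98.9 FPKM in siNC (1.74, SE 0.08, adjusted p = 1.18e-06). Acta2, smooth muscle alpha-actin, was at 1711, 1643 and 1659 FPKM in siYBX1 and 484, 537 and 533 FPKM in siNC (1.69, SE 0.07, adjusted p = 2.61e-07). These 3 genes are the largest called rises of the list. In all 3 every siYBX1 library was above every siNC library, as for 19.0% of all tested genes. Actin genes resemble each other, and how shared reads were assigned is not given in the sources used here. Smtn, smoothelin, which carries a calponin-homology domain of its own, did not pass (log2 fold change -0.11, adjusted p = 0.283, limma). Neither did Des, the intermediate filament protein desmin (-0.13, adjusted p = 0.416).

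The genes listed here as markers of the smooth muscle lineage did not all follow. Myh11, smooth muscle myosin heavy chain, was listed at 0.0751, 0.0790 and 0.112 FPKM in siYBX1 and 0.142, 0.136 and 0.125 FPKM in siNC, too low to be tested. Myocd, the cofactor of SRF that marks the smooth muscle lineage, was at or below 0.0138 FPKM in every library, and Kcnmb1, a potassium channel subunit, was listed at 0 in 5 of the 6. Of the 9 listed, not all of them confined to smooth muscle, 7 are also among the contractile partners. Of these 9 markers 5 were tested and 4 (80%) rose, beside 9.54% over all tested genes. Those 4 were Lmod1 (log2 fold change 0.94, adjusted p = 1.55e-05, limma), Itga8 (0.59, adjusted p = 0.00109), Synpo2 (0.52, adjusted p = 0.00505) and Ppp1r12b (0.35, adjusted p = 0.0103), and Des did not pass. The summed level of the list was 55.9 to 65.8 FPKM in siYBX1 libraries and 36.9 to 40.0 FPKM in siNC libraries. Of 16 skeletal and cardiac muscle markers 12 were in the table and 2 were tested, of which Mb, myoglobin, fell (-0.51, adjusted p = 0.000254, limma). The other, Acta1, skeletal actin, was at 1.39, 2.93 and 2.39 FPKM in siYBX1 and 0.641, 0.502 and 0.198 FPKM in siNC. It passed the filter of 1 FPKM only through siYBX1, so its call (1.14, adjusted p = 0.00144, limma) is not read as a rise. The summed level of the 12 markers was 73.6 to 81.4 FPKM in siYBX1 libraries and 106.9 to 107.9 FPKM in siNC libraries, nearly all of it Mb. Myod1, Actc1, Ckm, Myh3 and Ryr1 averaged below 0.1 FPKM.

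Known targets of SRF and MRTF were mostly higher in siYBX1 as well. Of 28 such genes 26 were tested, and 18 (69.2%) rose and 3 (11.5%) fell, beside 9.54% and 11.1% over all tested genes. The median log2 fold change of the list was 0.44. This list shares Acta2, Actg2, Myl9, Tpm1 and Vcl with the contractile partners. It also shares Srf with the regulators and Flna with the calponin-homology domain genes described below. Srf itself was at 17.4, 17.4 and 18.6 FPKM in siYBX1 and 13.0, 11.3 and 11.01 FPKM in siNC (log2 fold change 0.56, SE 0.07, adjusted p = 0.000554, limma), with no overlap. The targets that fell were Ablim1, an actin-binding LIM protein (-0.37, adjusted p = 0.00314), the growth response factor Egr1 (-0.36, adjusted p = 0.0154) and beta-actin, Actb (-0.29, adjusted p = 0.0165). The call of Egr1 was lost without siYBX1 replicate 2 (adjusted p = 0.0504), and that of Actb without siYBX1 replicate 1 (0.0590), siYBX1 replicate 2 (0.0507) or siNC replicate 3 (0.0513). Fhl2 (0.13, adjusted p = 0.243) and non-muscle myosin heavy chain Myh9 (0.13, adjusted p = 0.203) did not pass, though Myh9 passed without siNC replicate 1 (0.18, adjusted p = 0.0488).

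Among the regulators that act on the family, Srf, Tgfb3 and Tead1 (13.6%) rose and 5 (22.7%) of 22 tested genes fell, with a median of -0.03. Over all tested genes these shares were 9.54% and 11.1%. Tgfb3, a TGF-beta ligand, was at 18.6, 18.1 and 20.5 FPKM in siYBX1 and 14.4, 13.5 and 13.7 FPKM in siNC (log2 fold change 0.43, SE 0.06, adjusted p = 0.00118, limma). Tgfb1, the ligand most often used to induce Tagln, was at 2.92, 3.79 and 3.59 FPKM in siYBX1 and 4.95, 4.41 and 4.94 FPKM in siNC (-0.38, SE 0.08, adjusted p = 0.0109). Tead2 (-0.26, adjusted p = 0.0154) and the TGF-beta receptor Tgfbr1 (-0.26, adjusted p = 0.0198) also fell. The call of Tead1 (0.18, adjusted p = 0.0499) was lost in 5 of the 6 fits that leave out 1 library, with siNC replicate 1 the exception, and the adjusted p reached 0.159 without siNC replicate 3. Tgfbr1 was lost in 4 such fits (without siYBX1 replicates 1 and 2 and siNC replicates 2 and 3, adjusted p 0.0601 to 0.0730) and Tead2 in 2 (without siYBX1 replicate 1, 0.0628, and siNC replicate 3, 0.0597). The count of 8 calls was 3 without siYBX1 replicate 1, 4 without siYBX1 replicate 2, siNC replicate 2 or siNC replicate 3, and 5 without siYBX1 replicate 3. The cofactor genes Mrtfa (0.05, adjusted p = 0.692) and Mrtfb (-0.13, adjusted p = 0.247) did not pass, nor did Yap1 (0.10, adjusted p = 0.217) and Wwtr1 (-0.05, adjusted p = 0.500), the coactivators of TEAD proteins.

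Other genes with a calponin-homology domain moved in both directions. Of 62 listed genes 43 were tested, and 10 rose and 8 fell, with a median of -0.04. These are shares of 23.3% and 18.6%, beside 9.54% and 11.1% over all tested genes. Actn1, the actin crosslinker alpha-actinin 1, was at 77.5, 78.1 and 80.9 FPKM in siYBX1 and 51.6, 48.4 and 47.0 FPKM in siNC (log2 fold change 0.68, SE 0.05, adjusted p = 4.04e-05, limma). Flna, filamin A (0.48, SE 0.07, adjusted p = 0.00105), and Pls3, the bundling protein plastin 3 (0.47, SE 0.06, adjusted p = 0.000512), rose as well. These 3 crosslinkers are the largest called rises of the list. Their siYBX1 libraries were all above their siNC libraries, as for 19.0% of all tested genes. Among the genes that fell were Actn3, the alpha-actinin of fast skeletal fibres (-0.60, adjusted p = 0.00677), Iqgap3, a scaffold linked to cell division (-0.59, adjusted p = 0.000548), and Aspm, a spindle pole protein (-0.51, adjusted p = 0.000960). Iqgap1, a scaffold that binds actin, did not pass (-0.02, adjusted p = 0.809). When libraries were rescaled to the same total the counts were 5 higher and 9 lower. The higher calls numbered 6 without siYBX1 replicate 2, siYBX1 replicate 3 or siNC replicate 2.

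**Figure D3:**
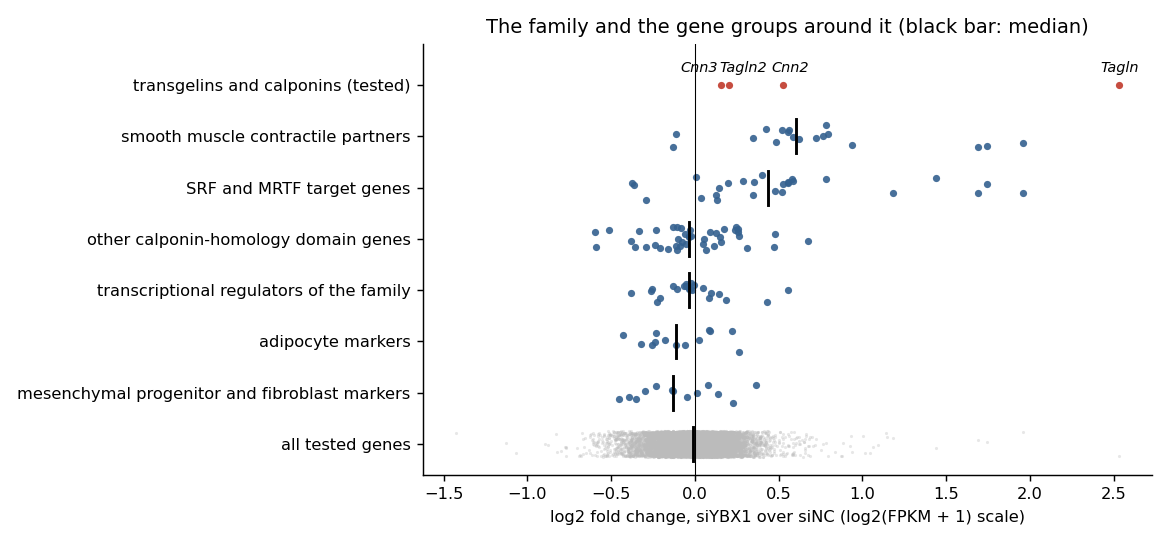
Log2 fold change of siYBX1 over siNC on the log2(FPKM + 1) scale (horizontal axis) for the 4 tested members (red), 6 gene groups (blue) and all 10341 tested genes (grey), 1 point for each gene and a black bar for the median of each gene group. Contractile partners and SRF targets lie mostly right of 0, with medians of 0.60 and 0.44, and the other groups have medians between -0.13 and -0.03.

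Likeness of profiles over the 6 libraries was measured as the root mean square difference of log2(FPKM + 1) after subtracting each gene's siNC mean, over 7483 genes that averaged 5 FPKM or more in either group. The 5 genes nearest to Tagln were Actg2 (0.42), Myl9 (0.60), Acta2 (0.62), Ccn2, a matricellular protein (0.79), and Nexn, an actin-binding protein (0.96). Ccn2 was at 30.1, 39.3 and 33.7 FPKM in siYBX1 and 12.1, 10.3 and 13.8 FPKM in siNC, and Nexn at 9.22, 9.10 and 8.07 FPKM in siYBX1 and 3.59, 3.24 and 3.11 FPKM in siNC. All 5 had smaller differences between groups than Tagln, which was the highest of the tested genes, so this measure returns other genes with large rises. For Cnn2 the nearest were Chfr, a mitotic checkpoint ubiquitin ligase (0.02), Tpm4, a tropomyosin (0.03), and Wdr1, an actin filament disassembly factor (0.04). Tpm4 was at 639, 665 and 632 FPKM in siYBX1 and 449, 454 and 443 FPKM in siNC, and Wdr1 at 119, 120.1 and 118 FPKM in siYBX1 and 82.3, 83.6 and 84.7 FPKM in siNC. For Tagln2 they were Ybx3 (0.03), which encodes another cold-shock domain protein, Psat1 (0.05) and Bloc1s3 (0.05). For Cnn3 they were Dnttip2 (0.01), Nono (0.01) and Chmp3 (0.02). Those of Cnn1, Lrrc41, Dhx29 and Grb2 (0.01 each), have nearly flat profiles, as any gene near 0 has on this scale.

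**Figure D4:**
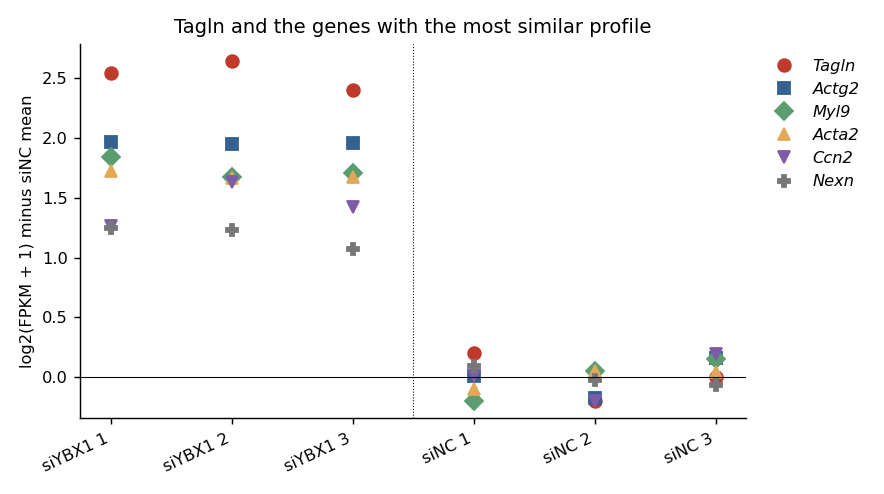
log2(FPKM + 1) minus the gene's siNC mean (vertical axis) in each of the 6 libraries for Tagln and its 5 nearest genes. In siYBX1 libraries Tagln lies above the 5 others, which lie between the horizontal line at 0 (the siNC mean) and Tagln, and in siNC libraries all 6 genes scatter around 0.

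Markers of the cell types the cultures could hold were measured beside these values. Of 15 adipocyte markers 13 were tested, and none rose and 2 (15.4%) fell, beside 9.54% and 11.1% over all tested genes. Those that fell were Pnpla2, a triglyceride lipase (log2 fold change -0.43, adjusted p = 0.00189, limma), and Cfd, adipsin (-0.32, adjusted p = 0.0136). The call of Cfd was lost without siYBX1 replicate 3 (adjusted p = 0.0506) or siNC replicate 3 (0.0570). The count of the list was 7 without siNC replicate 1, 5 without siYBX1 replicate 1 and 1 without siYBX1 replicate 3 or siNC replicate 3. All of these calls were lower in siYBX1. Without siNC replicate 1, 1056 of all 10325 tested genes were called lower. Fabp4, a fatty acid carrier, was at 1552 to 1953 FPKM in siYBX1 and 1136 to 1665 FPKM in siNC and missed the threshold (0.26, adjusted p = 0.209). So did Adipoq, adiponectin (-0.06, adjusted p = 0.783), except when siNC replicate 1 was left out (-0.25, adjusted p = 0.0131). Adipoq was at 468 FPKM in siNC replicate 1 and at 707 and 676 FPKM in siNC replicates 2 and 3. The summed level was 3602 to 4159 FPKM in siYBX1 libraries and 3291 to 4211 FPKM in siNC libraries, which overlap, and all 15 averaged above 0.1 FPKM. Of 17 progenitor and fibroblast markers 13 were tested, and 1 (7.69%) rose and 4 (30.8%) fell. The collagen gene Col1a1 rose (0.36, adjusted p = 0.0101), a call lost with quantile normalization (0.23, adjusted p = 0.141). Col3a1, another collagen (-0.45, adjusted p = 0.000670), the TGF-beta co-receptor Eng (-0.39, adjusted p = 0.0142) and periostin, Postn (-0.30, adjusted p = 0.0150), were among 4 that fell. Eng was lost without siYBX1 replicate 1 (0.0562), and Postn without siYBX1 replicate 1 or 3 or siNC replicate 2 or 3 (0.0501 to 0.0584). S100a4 (0.23, adjusted p = 0.0828) and vimentin, Vim (0.13, adjusted p = 0.254), did not pass. The count of 5 calls in the list was 3 without siYBX1 replicate 1. The summed level of the list was 7795 to 8276 FPKM in siYBX1 libraries and 7581 to 7686 FPKM in siNC libraries. Its largest parts were Vim (means of 3085 FPKM in siYBX1 and 2809 FPKM in siNC) and S100a4 (2540 and 2174 FPKM), neither of which passed. The part that the makeup of the cultures has in the level of Tagln or Cnn2 was not tested.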

How the data were processed

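RNA was sequenced from 6 libraries of 1 mouse cell line. Tools given in the submitters' processing notes are HTSeq, HISAT2 and fastp, and the build is GRCm39; no version, role or order is given. The values deposited by the authors are FPKM in 1 table, whose columns con and si were assigned to siNC and siYBX1 libraries by name and number. Library totals were found as the number that turns the FPKM steps of single-exon genes into whole reads (tolerance 0.02 reads), and each gene's length as the smallest that does so in all libraries, for 16422 of 16423 genes; for each of the 5 members a length 2 times as long would exceed all its exons in GENCODE vM21 together, an annotation of GRCm38.

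limma 3.58.1 (R 4.3.3, intensity trend) was run on log2(FPKM + 1), a scale that understates changes of low genes, two-sided with Benjamini-Hochberg adjustment. It was checked on reads simulated with equal extra spread for every gene and no effect common to a library. Such effects are outside that check. Protein identities used global alignment (BLOSUM62, Biopython 1.88). Genes were named by rule: members, Ybx1, the 3 largest called rises and falls and the 2 most abundant tested genes that did not pass in each list, and the nearest profiles, leaving out predicted genes. A gene that this rule names is not reported here. Other genes named (Myh11, Myocd, Kcnmb1, Ppp1r12b, Mrtfa, Mrtfb, Pcsk7, Sidt2, Tagln3, Tpm1, Vcl, Myod1, Actc1, Ckm, Myh3, Ryr1 and the gene models that share sequence with members) were chosen with their values seen. Members and lists were chosen with earlier results of these data known. Alternatives were another pseudocount, other filters, 2 rescalings, a replicate block and leaving out each library; voom on recovered reads and a length correction (loess, span 0.3) were added after the data were seen.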

Additional observations from a re-analysis of the deposited data

How the results depend on the processing

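Tagln, Tagln2, Cnn2, Cnn3 and the called contractile partners kept their direction under every alternative run. Tagln was at 2.43 to 2.68, and 14 to 16 partners were called, all higher. Ybx1 was called in all of them. Rises among the SRF and MRTF targets ranged from 14 without a filter to 20 without siNC replicate 1. Cnn2 was at 0.47 with libraries rescaled to the same total and 0.41 with quantile normalization, and Cnn3 at 0.10 and 0.047. Tagln2, at 0.20 in the main fit, was at 0.15 and 0.12 in these fits and 0.14 after the length correction. Cnn1 was at -0.19 with a pseudocount of 0.1, -0.077 after the length correction and -0.35 with voom on recovered reads, from few reads. Without a filter 1241 genes were called in all against 2132, with 3 calls among the regulators, 1 among adipocyte markers and 2 among progenitor markers; more genes are then tested. Leaving out 1 library gave 1201 to 2026 calls in all, 3 to 7 among the regulators, 1 to 7 among adipocyte markers and 3 to 7 among progenitor markers, with fewer samples tested. Adipocyte markers had 6 calls with rescaled libraries, 5 with quantile normalization and 4 with the length correction or voom, all lower in siYBX1. The cause of these changes in counts, including those without a filter or without 1 library, was not tested. With the replicate number as a block (replicate block) 1346 genes were called, 5 of them regulators. Same-numbered libraries deviated from their group means with correlations of -0.31, -0.13 and -0.25. With 3 libraries in each group, these values cannot decide whether the numbers pair the samples. About 4 to 8 reads per library limit what can be said of Cnn1.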
